A study of Mus musculus with 4 samples.

Results

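The Myoc Angptl7 cells were 211 of 2417 kept cells (8.73%) from mouse tail intervertebral discs, chosen by the measured expression of Myoc, Angptl7, Lepr and Ccdc3 in single cell RNA sequencing. A kept cell was a barcode with at least 500 detected genes and under 10% mitochondrial UMIs (a UMI is 1 distinct transcript molecule). UMIs were scaled to 10000 per cell, log-transformed and standardised per gene over all kept cells, and 7 panels of 4 genes were scored by their mean standardised value. A member had the panel of these 4 genes as its highest score, above 0.5. Because measured expression chose the members, the levels of the 28 panel genes and every contrast of levels between members and other kept cells are given as description, without a test.

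The 2 control and 2 injured libraries came from female wild-type C57BL/6 (#000664) mice of 12 weeks, with 1 library of each group in each of 2 rounds. Control discs were unpunctured discs of tail levels CC12/13 to CC16/17, and injured discs were those of levels CC5/6 to CC9/10 of the same animals. The latter were punctured on both sides with a 30G needle, and mice were killed 7 days after injury. Tail level and puncture therefore cannot be told apart in any comparison below. The labels give a pool of 30 discs from 6 mice per group and do not say whether this holds for each round. The pooled cells were frozen, thawed and sorted for viability with DAPI, so a library is the unit of replication, and the p-values measure the spread between these pools.

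The annulus fibrosus is the ringed wall of the disc. Its outer part is built by fibroblast-like cells from type I collagen fibres and merges with ligament, while its inner part is richer in type II collagen and aggrecan, as cartilage is. Myoc encodes myocilin, a secreted olfactomedin-domain glycoprotein best known from the outflow tissue of the eye, where glucocorticoids induce it. Angptl7 encodes a secreted angiopoietin-like protein, Lepr the receptor for leptin, which marks stromal cells around marrow vessels, and Ccdc3 a secreted protein.

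In mm10, Myoc lies at chr1:162639155-162649693 on the plus strand, Angptl7 at chr4:148495183-148500460 on the minus strand, Lepr at chr4:101717404-101815352 on the plus strand and Ccdc3 at chr2:5137776-5230878 on the plus strand. The promoter windows of Myoc and Angptl7 are shown because these genes define the cells. They are RefSeq sequences on GRCm38.p6, from 250 bases before to 50 bases after the start, and capitals mark matches to the TATA box TATAAA or to the E-box CANNTG, searched on both strands. The Myoc window is chr1:162638900-162639199 on the plus strand and the Angptl7 window is chr4:148500413-148500712 on the minus strand.
Myoc: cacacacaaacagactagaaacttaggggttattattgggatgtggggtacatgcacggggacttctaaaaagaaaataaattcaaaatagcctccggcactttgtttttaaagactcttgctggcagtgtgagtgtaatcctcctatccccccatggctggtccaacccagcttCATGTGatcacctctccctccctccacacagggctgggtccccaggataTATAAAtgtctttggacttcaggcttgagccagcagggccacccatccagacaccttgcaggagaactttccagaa
Angptl7: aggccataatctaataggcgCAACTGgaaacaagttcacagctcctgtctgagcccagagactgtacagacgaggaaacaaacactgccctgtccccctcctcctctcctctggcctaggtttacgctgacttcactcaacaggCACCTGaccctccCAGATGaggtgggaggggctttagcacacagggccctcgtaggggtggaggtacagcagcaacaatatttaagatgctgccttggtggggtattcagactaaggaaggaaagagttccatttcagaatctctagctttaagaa
The Myoc window held 1 TATAAA, starting 26 bases before the start, and 1 E-box, and the Angptl7 window held 3 E-boxes and no TATAAA. Of 32851 windows of this length, 13.6% held TATAAA and 72.3% an E-box. The glucocorticoid receptor motif AGAACA, present in 19.0% of windows, was not among the letters of either window.

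Depth and shared barcodes bear on what follows. Control members had a median of 4411 UMIs in round 1 and 5944 in round 2, and injured members 6544 and 5340, against 3631.5, 4985, 8830 and 5876.5 in the other kept cells in that order. Their counts summed to 201142, 418164, 245697 and 555492 UMIs. The deposited control matrix of round 1 listed 444 barcodes, each with at least 502 UMIs, so free RNA could not be read from it, whereas the other 3 matrices also listed nearly empty barcodes. Some barcodes of round 1 had UMIs in both matrices. All 35 control members of round 1 had at most 1.95% of their own UMI number under the same barcode in the injured matrix. In the injured library of round 1, 3 of 31 members, with 21425 to 25587 UMIs, had 684 to 764 UMIs under their barcode in the control matrix. Barcodes of round 2 were not compared.

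The name outer annulus fibroblast was set against fixed marker lists. In what follows, CPM is the number of UMIs of a gene per 1000000 UMIs summed over the members of a library, and paired values stand in the order of rounds 1 and 2. The 12 universal fibroblast genes, all detected, summed to 7945 and 9829 CPM in control and 4884 and 5113 in injured members, against 2340, 1665, 1218 and 2097 in the other kept cells. Gsn, Igfbp6 and Clec3b gave most of these UMIs, whereas Pi16, Dpp4, Cd34, Dpt, Mfap5 and Cd248 were at or below 69.6 CPM in every library. Decorin (Dcn), which binds collagen fibrils and is on the lists of tendon genes and small leucine-rich proteoglycans, stood at 12379 and 14748 CPM in control and 16724 and 24479 in injured libraries among members and at 3763 and 3408 CPM in control and 10769 and 9132 in injured libraries among other kept cells. The tenocyte markers Scx, Tnmd, Mkx, Kera and Thbs4 summed to 293 and 485 CPM in control and 399 and 342 in injured members, and all 5 were detected. In the other kept cells they summed to 97.5 and 147 CPM in control and 85.0 and 380 in injured libraries, so members were above them in 3 libraries and below them in injured round 2. The 5 cartilage markers Acan, Col2a1, Col9a1, Sox9 and Matn3 summed to 2118 and 863 CPM in control and 2869 and 3636 in injured members, below the 5237 and 6421 and the 9412 and 8347 CPM of the other kept cells, and Matn3 had no UMI. Members thus held transcripts of all 3 groups. No position in the disc was measured, so the outer annulus in the name was not checked.

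Markers of other cell types ranged from absent to plentiful. No UMI of the 4 T or NK cell markers was found, and Ptprc, Ctss and Adgre1 were at 0 among the 8 macrophage markers, which summed to 4.97 and 2.39 CPM in control and 20.4 and 19.8 in injured members. The 6 endothelial markers, all detected, summed to 114 and 64.6 CPM in control and 191 and 21.6 in injured members. These sums rest on 23, 27, 47 and 12 UMIs. In the other kept cells they were 85.18 and 1.96 CPM in control and 73.03 and 19.97 in injured libraries. Members were thus higher in every library, though nearly level in injured round 2. The 6 mural markers summed to 24.9, 31.1, 236 and 16.2 CPM in members in the same order. Other kept cells held 49.5, 80.2, 151 and 86.9 CPM of them, so members were higher in injured round 1 only. Whether vascular cells or their RNA were among the members was not tested. The endoneurial fibroblast markers Osr2, Etv1, Wif1, Abca9 and Sox9, all detected, summed to 1551 and 847 CPM in control and 1868 and 1023 in injured members, against 3304, 2677, 1685 and 1105 in the other kept cells. Sox9, which is also on the cartilage list, gave 206 of 312 and 272 of 354 of these UMIs in control and 409 of 459 and 351 of 568 in injured members, and the WNT inhibitor Wif1 gave most of the rest. Schwann cell markers (4 of 6 detected, Sox10 and Cdh19 at 0) summed to 84.5 and 100.4 CPM in control and 102 and 234 in injured members, and S100b, which cartilage also expresses, gave 15 of 17, 30 of 42, 23 of 25 and 123 of 130 of those UMIs. Perineurial (5 of 6 detected) and keratinocyte markers (2 of 4, Krt5 and Krt14 at 0) summed to at most 74.6 and 59.7 CPM in any library. Adipocyte, skeletal muscle, erythroid, B or plasma cell, pancreatic acinar and neutrophil or mast cell markers summed to at most 14.9 CPM each.

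Marker lists of 2 cell types were far higher in control round 1 than in the other libraries, and 1 gene gave most of the UMIs of each there. Nucleus pulposus markers (4 of 6 detected, Krt18 and Shh at 0) summed to 1009 and 45.4 CPM in control and 0 in both injured libraries. The carbonic anhydrase Car3 gave 177 of these 203 UMIs in control round 1 and 18 of 19 in control round 2. Without Car3 the other 5 markers summed to 129 and 2.39 CPM in control members and 0 in both injured libraries, beside 368 and 129 CPM in control and 5.91 and 3.42 in injured other kept cells. Osteoblast markers (4 of 5 detected, Bglap at 0) stood at 960 CPM in control round 1 and 57.4 in control round 2, against 32.6 and 55.8 in injured members, and bone sialoprotein (Ibsp) gave 183 of 193 UMIs in control round 1. In other kept cells these markers summed to 774 and 75.3 CPM in control and 41.4 and 23.7 in injured libraries. They were thus highest in control round 1 there too.

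**Figure D1:**
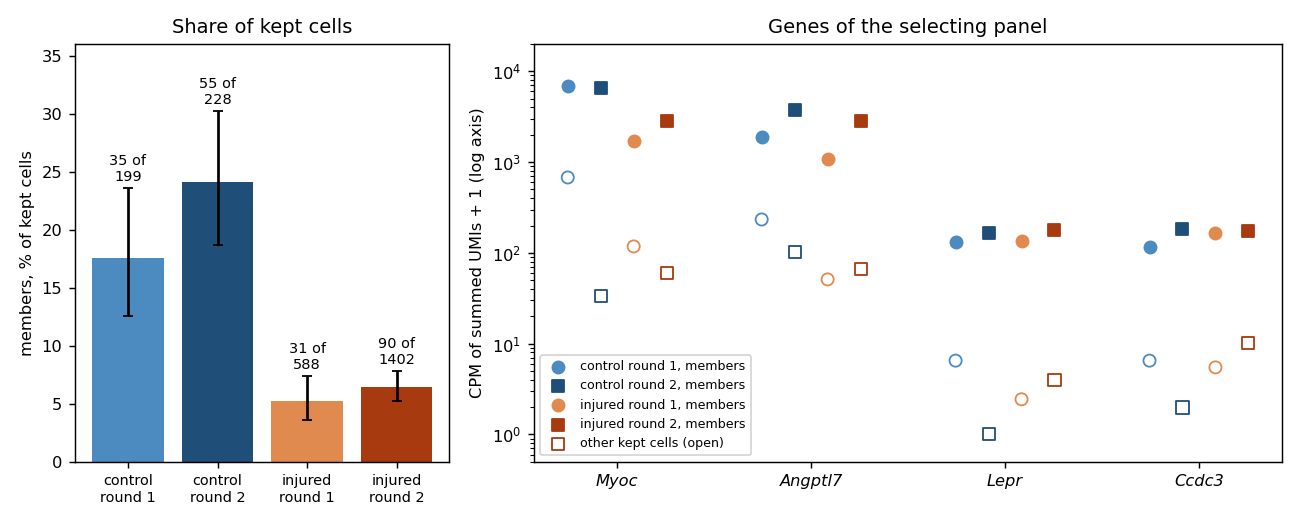
Left, share of kept cells that were members in each library, with exact 95% binomial intervals and the counts above the bars (control libraries 17.6% and 24.1%, injured libraries 5.27% and 6.42%). Right, summed level of the 4 selecting genes as CPM + 1 on a log axis, with filled points for members and open points for other kept cells. Filled points lie above the open point of the same library for each of the 4 genes, and Myoc is lower in members of both injured libraries than of both control libraries.

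Members held 73.7% and 98.8% of the Myoc UMIs of all kept cells in the control libraries and 36.4% and 74.0% in the injured libraries. Myoc stood at 6856 and 6596 CPM in control and 1701 and 2828 in injured libraries, so the injured members of both rounds were below both control libraries. Angptl7 stood at 1909 and 3707 in control and 1091 and 2844 in injured, and here the groups overlapped. Lepr (129 and 165 in control and 134 and 176 in injured) and Ccdc3 (114 and 184 in control and 163 and 175 in injured) were detected at low levels that were alike in all 4 libraries. A UMI of Myoc was found in 166 of 211 members (78.7%) and of Angptl7 in 171 (81.0%), against 226 of 2206 other kept cells (10.2%) for each gene. As a measure of free RNA, 2 of 90 macrophage-like cells (2.22%) held Myoc and 1 (1.11%) held Angptl7, at a median of 4194 UMIs against 5425 in members. These were the kept cells with at least 4 of the 8 macrophage markers. They came almost wholly from the injured libraries (0 and 2 in control, 30 and 58 in injured libraries), so these shares give no background for the control libraries. In barcodes of at most 100 UMIs, Myoc stood at 108, 63 and 52.9 CPM in control round 2 and the injured libraries of rounds 1 and 2.

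Members differed in how many of the selecting genes they held. A single panel gene was detected in 28 members, 2 in 59, 3 in 92 and all 4 in 32. Outside the panel, chondroadherin (Chad), a collagen-binding leucine-rich protein, was followed from cell to cell after each cell was thinned to 1000 UMIs. Within members of a library (n = 35 and 55 in control, 31 and 90 in injured libraries), Spearman's rho of Chad was 0.28 to 0.48 with Comp, 0.34 to 0.50 with Cilp2 and -0.19 to 0.19 with Col1a1. Cells share depth and library in these values, which are descriptions.

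Most members also scored on the panel of Fmod, Comp, Prg4 and M1ap, genes of fibrous and lubricated connective tissue. That panel was the second highest in 165 of 211 members, and in 160 members (75.8%) some second panel was above 0.5, 140 of them by the Fmod panel. The share of members with a second score this high was 65.7% and 70.9% in control and 64.5% and 86.7% in injured members. Scores of the defining panel had a median of 1.78 and ran from 0.510 to 6.08. The members nearest the threshold scored 0.510, 0.538 and 0.541, and the nearest excluded cells with the same highest panel 0.499, 0.497 and 0.487. There were 15 members below 0.75 and 16 excluded cells at 0.25 to 0.5, so few cells lay near the limit. A further 98 kept cells scored above 0.5 with another panel higher, which was the Fmod panel in 57 and the Aspn panel in 14. They numbered 16 and 2 in control and 19 and 61 in injured libraries.

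**Figure D2:**
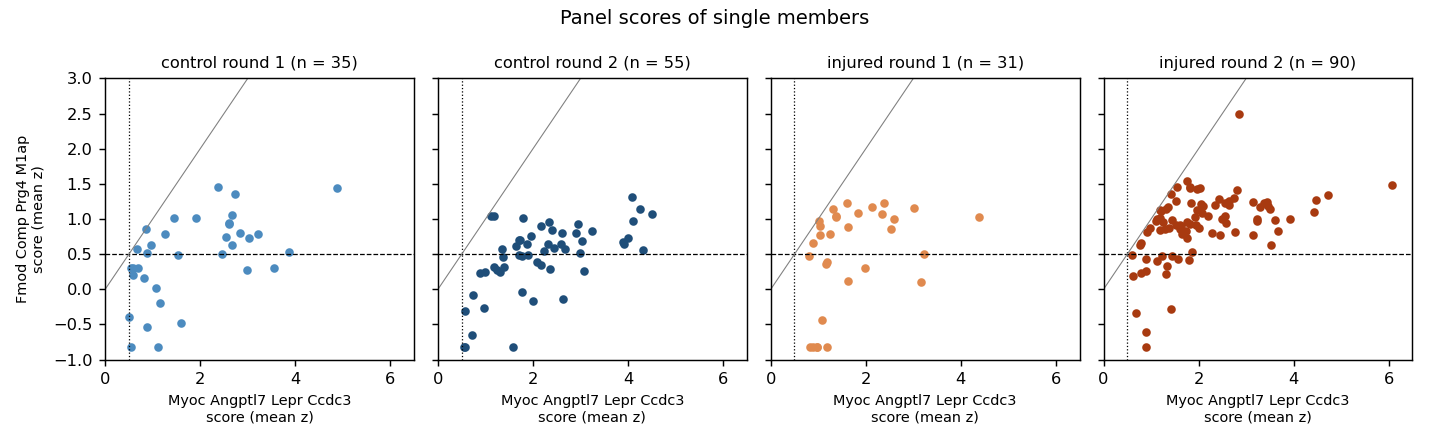
Score of the defining panel (x axis, mean standardised value of Myoc, Angptl7, Lepr and Ccdc3) and of the Fmod, Comp, Prg4 and M1ap panel (y axis) for each of the 211 members, by library. Dotted and dashed lines mark 0.5 on either axis and the grey line marks equal scores. Most members lie above the dashed line, with median Fmod panel scores of 0.53 and 0.57 in control and 0.79 and 0.98 in injured libraries.

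Beside the panel, the genes with the largest excess in members included secreted binding proteins, matrix genes and genes of other functions. The measure was the log2 ratio of CPM + 10 between members and other kept cells, taken as the median of 4 libraries, for genes higher in each library. Of the 25 genes so named, 16 were at least 2-fold higher in all 4 libraries. Over all 6498 genes with 20 UMIs in members, 31 (0.477%) were so, and these include the 4 selecting genes. The 25 were picked by the same ratio, so their count beside this share is no test.

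Insulin-like growth factor binding proteins were among them. Igfbp4 had the highest median log2 ratio, 3.50, with members at 333 and 1301 CPM in control and 297 and 632 in injured libraries and other cells at 15.1 and 40.1 in control and 22.7 and 197 in injured. Igfbp5 had a ratio of 3.15, with members at 681 and 1282 in control and 289 and 382 in injured and others at 45.3 and 38.1 in control and 37.1 and 51.8 in injured, and Igfbp6 had 2.87. Tetranectin (Clec3b), a plasminogen kringle-binding protein, had a ratio of 3.37, with members at 929.7 and 2267 in control and 407 and 481 in injured and others at 64.6 and 77.3 in control and 38.8 and 165 in injured. For Igfbp4 and Clec3b the ratio was lowest in the injured library of round 2 (1.63 and 1.49), where other cells were also highest.

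Matrix genes were another group. Cilp2, a cartilage intermediate layer protein, had a ratio of 3.28 and was even across libraries (2.72 to 3.42), with members at 1069 and 1016 CPM in control and 1254 and 1728 in injured libraries. Col1a1 had 3.07 and Col1a2 2.36, but the excess of Col1a1 ran from 3.39 in control round 2 to 0.39 in injured round 2, where other cells held 8195 CPM. Chad had 2.51 (members 4778 and 6330.1 in control and 7753 and 10407 in injured, others 2505 and 1015 in control and 1476 and 1296 in injured). Tenomodulin (Tnmd), a tendon and ligament membrane protein, had 2.39, and the leucine-rich proteins Ogn and Ecm2 had 2.14 and 2.12. Comp (2.08) and Fmod (1.80) belong to another of the 7 panels. The fibulins Fbln1 and Fbln7 had 2.06 and 1.97.

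The remaining named genes were of mixed function. The C1 inhibitor Serping1 had a ratio of 1.78. Serpinf1, the anti-angiogenic pigment epithelium-derived factor, had 2.65, but 0.29 in injured round 2. The urotensin receptor Uts2r had 2.40, Itgbl1 2.34, the secreted Dickkopf family protein Dkk3 2.13, the glycosyltransferase Galnt15 1.83, the membrane glycoprotein Cd200 1.81, the carboxypeptidase-like Cpxm2 1.75 and the NADPH oxidase Nox4 1.73.

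**Figure D3:**
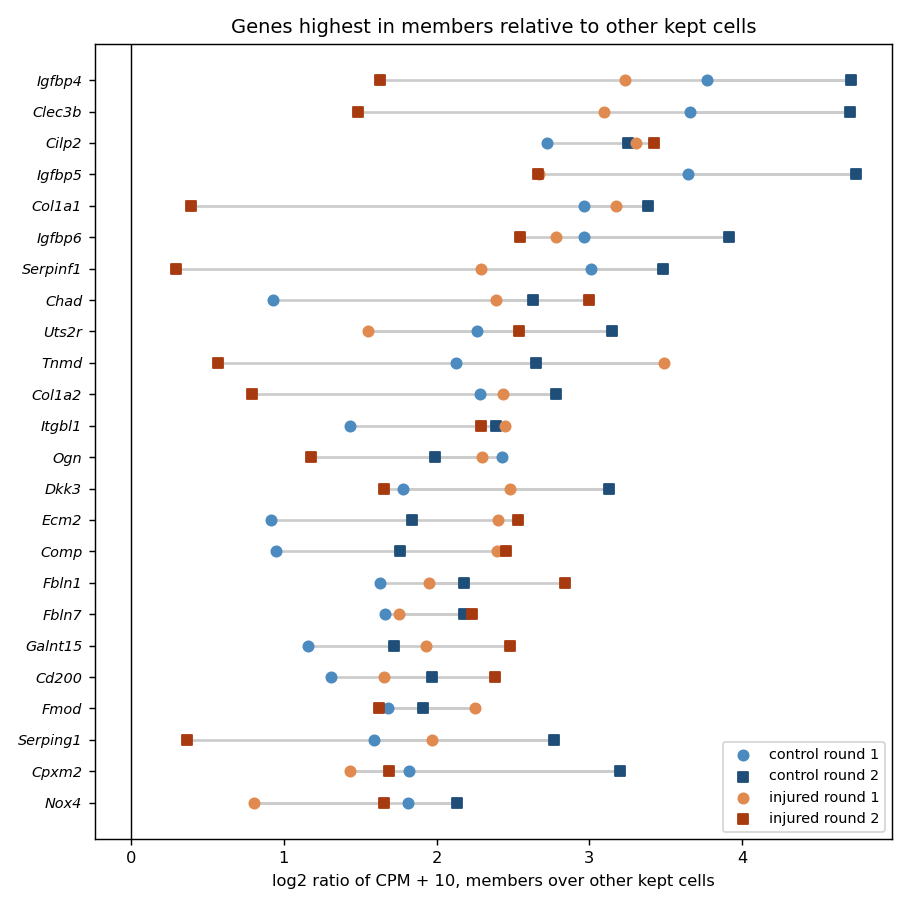
Log2 ratio of CPM + 10 in members over other kept cells for 24 of the 25 genes with the largest median ratio, 1 point per library. The line at 0 marks equal levels. All points lie to the right of 0, and for Col1a1, Serpinf1, Tnmd and Serping1 the injured library of round 2 lies closest to it.

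Cells led by Fmod, Comp, Prg4 and M1ap, the panel most often second in members, numbered 11 and 7 in control and 54 and 227 in injured libraries. In these cells Igfbp5 stood at 14.8 and 37.7 CPM in control and 58.7 and 85.6 in injured libraries, Igfbp4 at 44.5 and 25.1 in control and 96 and 124 in injured and Ogn at 0 and 0 in control and 24.4 and 35.8 in injured. Members were above them in every library for these 3 genes. Col1a1, at 2282 and 3770.1 CPM in control and 16318 and 13019 in injured libraries in the Fmod panel cells, was not, and neither was Dcn at 16729.9 and 24103 in control and 16196 and 19127 in injured. Col2a1 stood at 1837 and 4172 CPM in control and 7309 and 10272 in injured libraries there, above the members of the same library in each case (403 and 76.5 in control and 716 and 2733 in injured).

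The cells led by Aspn, Cthrc1, Postn and Thbs4, a repair fibroblast panel, numbered 2 and 1 in control and 16 and 263 in injured libraries, so a contrast with them rests on the injured libraries. This restriction was chosen after seeing those numbers. In injured members Cytl1, a secreted cytokine-like protein of cartilage, stood at 3150.2 and 9299.9 CPM, against 5.21 and 15.2 in the Aspn panel cells. Chad stood at 7753 and 10407 against 20.8 and 84.5, clusterin (Clu) at 1954 and 3042 against 15.6 and 52.8, Cilp2 at 1254 and 1728 against 5.21 and 26.9 and osteopontin (Spp1) at 28547 and 32141 against 907 and 788. The secreted Slurp1, the disulphide-rich Scrg1, thrombospondin 1 (Thbs1), Dmkn and Col2a1 completed the 10 genes most in excess in members. In the opposite direction, Mfap5, a microfibril protein, stood at 0 and 23.4 CPM in members against 485 and 634, galectin 1 (Lgals1) at 77.3 and 245 against 2908 and 4632 and Fstl1, a follistatin-like secreted protein, at 179 and 250.2 against 2402 and 3631. The elastin crosslinker Loxl1, the surface proteins Thy1 and Cd248, and Dpt, Rgs5, Col5a3 and Col18a1 were also lower in members. With all 4 libraries used, Chad, Cytl1, Clu and Cilp2 again headed the higher genes (median log2 ratios of 8.44, 7.87, 7.33 and 6.53), and Cygb, Nid1 and Olfml2a the lower (-3.44, -3.21 and -3.08).

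Members made up a smaller share of the kept cells of injured discs. There were 35 members of 199 kept cells in control round 1 (17.6%, exact 95% binomial interval 12.6 to 23.6%) and 55 of 228 in control round 2 (24.1%, 18.7 to 30.2%). In injured round 1 there were 31 of 588 (5.27%, 3.61 to 7.40%) and in injured round 2, 90 of 1402 (6.42%, 5.19 to 7.83%). The groups did not overlap, and the intervals, which cover counting error only, did not either. The mean was 20.9% ± 4.62 in control and 5.85% ± 0.811 after injury (SD, n = 2), a difference of -15.0 percentage points (-12.3 in round 1 and -17.7 in round 2). A two-sided exact permutation test over 2 against 2 libraries gave p = 0.333, the smallest it can give.

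A share depends on the other cells as well as on the members. It also leaves out the 98 kept cells that scored above 0.5 with another panel higher. These were 16 and 2 in control and 19 and 61 in injured libraries. Aspn panel cells went from 2 and 1 in control to 16 and 263 in injured libraries, and cells led by Grem1, Cnmd, Sfrp5 and Frzb numbered 53 and 98 in control and 22 and 56 in injured libraries. The difference was of nearly the same size with every cell thinned to 1000 UMIs before scoring (-15.1 points) and without the barcodes shared by the round 1 libraries (-16.9 points). It was -5.39 points at a minimum of 250 detected genes (12.5% and 9.72% against 5.04% and 6.40%) and -6.22 points without members whose second panel was also above 0.5. With genes standardised within each library it was -4.20 points, and in round 1 the control and injured libraries were then close, at 8.54% and 8.16%. By a simpler count chosen after seeing the data, kept cells with a UMI of both Myoc and Angptl7 after thinning were 8.57% and 15.0% in control and 1.37% and 3.16% in injured libraries.

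Within members, injured was then compared with control on counts summed per library, leaving out the 28 panel genes. edgeR's quasi-likelihood test with injury as the only term called 0 of 4242 genes (0.0%) at an adjusted p under 0.05. The lowest edgeR adjusted p was 0.138, and 144 genes (3.39%) had an unadjusted p under 0.05, 82 (1.93%) higher and 62 (1.46%) lower in injured members. DESeq2 called 13 (0.306%), 12 (0.283%) higher and 1 (0.0236%) lower. Control and injured discs of a round came from the same animals, and with round as a block the same edgeR test called 88 genes (2.07%), of which 56 (1.32%) were higher and 32 (0.754%) lower in injured members. All 88 had the same direction without the block and 79 had an unadjusted p under 0.05 there. The 13 genes of DESeq2 were all among them. Over the 4242 genes, both injured libraries lay above both control libraries for 492 (11.6%) and below both for 889 (21.0%), so a gene's groups not overlapping is common here. In the paragraphs below, "called" means called with the block, and log2 fold changes with their adjusted p come from that fit, whereas medians over lists, and values given as without a library or without certain members, come from the fit without the block. The block leaves 1 residual degree of freedom per gene, so these p-values lean on the spread shared across genes. The fit without the block, with no gene called, was planned as the main test, and the block as an alternative to it.

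Several collagen genes were called higher in injured members. Of the 10 fibrous collagens listed, 9 had enough counts, all 9 had positive fold changes, and 6 were called. Their median log2 fold change was 1.54, against -0.02 for all 4242 genes. Col1a1 stood at 3923 and 4878 CPM in control and 26166 and 10759.8 in injured libraries, and both injured libraries were above both control libraries (log2 fold change 2.05 ± 0.478 (SE), edgeR adjusted p 0.00234). The type VI collagens, which form beaded microfibrils around cells, were called together: Col6a1 at 860.1 and 997 in control and 3321 and 2412 in injured (1.72 on the log2 scale), Col6a2 at 532 and 502 in control and 2202 and 1302 in injured (1.82) and Col6a3 at 631 and 483 in control and 2072 and 1469 in injured (1.77). Col5a1 (1.34) and Col5a2 (1.54), which set collagen fibril diameter, were also called, at edgeR adjusted p 0.0128 and 0.00449. Col1a2 (1.28, edgeR adjusted p 0.157) and Col12a1 (1.02, 0.16) were higher in both injured libraries but not called, and Col3a1 was not called either (800.4 and 1492 CPM in control and 1209 and 2088 in injured libraries).

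Levels in the other kept cells were set beside these. Col1a1 stood there at 493 and 458 CPM in control and 2889 and 8195 in injured libraries, Col5a1 at 89.3 and 118 CPM in control and 167 and 565 in injured libraries and Col5a2 at 114 and 171 CPM in control and 478 and 948 in injured libraries. Col6a1 was at 1013 and 1512 CPM in control and 2699 and 2777 in injured libraries, Col6a2 at 754 and 861 CPM in control and 1829 and 1569 in injured libraries and Col6a3 at 768 and 1281 CPM in control and 2329.7 and 2379 in injured libraries. For all 6 genes, both injured libraries of other cells were above both control libraries. The share of all genes for which this held in other cells was not computed. None of the 6 collagens was among the genes whose injury difference was called as differing between members and other cells, described further on. The 3 shared barcodes of injured round 1 are among the deepest members there. Without them the log2 fold change of Col1a1 was 1.93, and it was 2.14 ± 0.447 (SE) with them. With cells thinned to 1000 UMIs the values of Col1a1 and Col6a2 were 1.40 and 0.92, against 2.14 and 1.85 unthinned.

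Some cartilage genes were called higher as well. Of 7 cartilage genes with enough counts, among 15 listed, 4 were called, all higher. Col11a2, a chain of the minor cartilage collagen XI, stood at 24.9 and 14.3 CPM in control and 159 and 157 in injured libraries (3.23 ± 0.464 (SE), edgeR adjusted p 3.58e-09). Col11a1 stood at 154 and 182 in control and 919.8 and 481 in injured (2.06), the major cartilage collagen Col2a1 at 403 and 76.5 in control and 716 and 2733 in injured (3.03) and the link protein Hapln1 at 174 and 55 in control and 305 and 146 in injured (1.20), each with both injured above both control libraries except Hapln1, which overlapped. In other kept cells Col2a1 stood at 1107 and 2549 CPM in control and 5645 and 5723 in injured libraries. It was above the members of each library there and also higher in both injured libraries. In barcodes of at most 100 UMIs, in control round 2 and the injured libraries of rounds 1 and 2, Col2a1 stood at 318, 1397 and 975 CPM, above the members in control round 2 and injured round 1 and itself higher in the injured libraries. Col11a2 stood there at 31.3, 135 and 71.9 CPM, above the members in control round 2, and the part of free RNA in these differences was not tested. Without members whose second score was above 0.5, which leaves 12 and 16 control and 11 and 12 injured members, the log2 fold change of Col2a1 went from 3.05 to 1.72 and that of Col11a1 from 2.13 to 0.90 (edgeR adjusted p 0.997 for both), and thinned to 1000 UMIs Col11a1 was at 1.08. Single libraries moved Col2a1 to 1.62 (without injured round 2) and 4.73 (without control round 1), and Hapln1 from 1.09 to 2.15, 0.45 and 0.66 (without control round 1, control round 2 and injured round 1). Epyc, a leucine-rich proteoglycan of growing cartilage, was the 1 call among 6 such proteoglycans (14.9 and 19.1 CPM in control and 52.9 and 75.6 in injured libraries, 2.07). Its log2 fold change, 2.02, was 0.96 with genes standardised within each library. Dcn and Bgn, its relatives, were not called (0.69 and 1.12).

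Wound and TGF-beta response genes were positive in 12 of 12 measured, with a median log2 fold change of 0.83, and 2 were called. Osteonectin (Sparc), which binds collagen outside the cell, stood at 5434 and 6096 CPM in control and 18388 and 20124 in injured libraries (1.85 ± 0.469 (SE), edgeR adjusted p 0.0072). Timp1, an inhibitor of matrix proteases, was at 293 and 33.5 in control and 541 and 301 in injured (1.94), with control round 1 close to injured round 2. Its log2 fold change rested on the control libraries: it was 1.49 with all 4 libraries, 3.78 without control round 1 and 0.62 without control round 2, and 2.98 without members whose second score was above 0.5. In barcodes of at most 100 UMIs Timp1 stood at 39.4, 273 and 336 CPM in control round 2 and the injured libraries, above the members in control round 2 and injured round 2, and the part of free RNA was not tested. Its relative Timp3 stood at 656 and 473 in control and 2291 and 1006 in injured (1.55). Fibronectin (Fn1), at 3659 and 2341 CPM in control and 5523 and 9399 in injured libraries, was not called (edgeR adjusted p 0.0729). The repair genes Tnc (4.97 and 0 CPM in control and 8.14 and 19.8 in injured libraries) and Acta2 (9.94 and 9.57 CPM in control and 57 and 12.6 in injured libraries), a contractile actin, did not pass the filter on low counts.

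Of 5 inflammatory mediators measured, 2 were called. The iron-binding lipocalin Lcn2 stood at 49.7 and 26.3 CPM in control and 277 and 466 in injured libraries (3.55 ± 0.428 (SE), edgeR adjusted p 2.24e-13). In barcodes of at most 100 UMIs Lcn2 stood at 210.4, 1658 and 447 CPM in control round 2 and the injured libraries of rounds 1 and 2, above the members in control round 2 and injured round 1 and close to them in injured round 2, and the part of free RNA in its difference was not tested. The monocyte chemokine Ccl2 was at 64.6 and 21.5 in control and 554 and 160.2 in injured (3.09), against 53.2, 98 and 179 CPM in such barcodes. Without the barcodes shared by the round 1 libraries the log2 fold change of Ccl2 went from 3.19 to 1.61 (edgeR adjusted p 0.999). Heme oxygenase (Hmox1) was the 1 call of 11 antioxidant genes (69.6 and 71.7 CPM in control and 476 and 129.6 in injured libraries, 1.85), with a log2 fold change of 2.13 that was 1.13 without injured round 1. Tgm2, a matrix crosslinking enzyme that is on the list of glucocorticoid-responsive genes, was the 1 call of 9 on it (2.05), at 1.95 with all libraries, 3.45 without control round 1 and 1.09 without control round 2. The median of that list was 0.01.

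Universal fibroblast genes, which mark fibroblasts of many tissues, differed in direction, with more of them lower than higher in injured members. Of 7 universal fibroblast genes with enough counts, among 12 listed, 5 had negative fold changes and 3 were called, all lower in injured members. Clec3b stood at 929.7 and 2267 CPM in control and 407 and 481 in injured libraries (-1.62 ± 0.394 (SE), edgeR adjusted p 0.00443). The actin-severing protein gelsolin (Gsn) was at 3739 and 3118 in control and 1404 and 965 in injured (-1.44) and dermatopontin (Dpt), a small matrix protein, at 69.6 and 50.2 in control and 12.2 and 5.4 in injured (-2.71). For all 3 genes, both injured libraries were below both control libraries. For Ly6a and Col15a1, named because they went the other way, both injured libraries were above both control libraries (323 and 230 CPM against 623 and 360, and 179 and 100.4 against 236 and 218), and neither was called. The list's median was -0.68 over the 7 genes, and -1.32 over all 12 without the filter on low counts. Cd34, Mfap5 and Cd248, with few UMIs, were also lower in both injured libraries of members. Cd34 stood at 19.9 and 31.1 CPM in control and 8.14 and 10.8 in injured members. Mfap5 was at 44.7 and 28.7 against 0 and 23.4, and Cd248 at 19.9 and 14.3 against 0 and 3.6. The log2 fold change of Clec3b, -1.72, was -0.92 without control round 2 and -0.90 without members whose second score was above 0.5. In other kept cells Gsn stood at 1513 and 997 CPM in control and 314 and 391 in injured libraries, lower there too. The groups of other cells overlapped for Clec3b (64.6 and 77.3 against 38.8 and 165) and Dpt (35.7 and 9.78 against 12.0 and 51.7). Pi16, a marker of adventitial fibroblasts, had 5 and 21 UMIs in control members and 0 in both injured libraries, at least 11.2-fold lower against a floor of 3 UMIs over the injured group (6.64-fold with control round 1 alone and 13.4-fold with control round 2 alone), and did not pass the filter on low counts.

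Single genes of other lists were called lower. The chemokine Cxcl12 stood at 49.7 and 122 CPM in control and 16.3 and 9 in injured libraries (-2.82 ± 0.526 (SE), edgeR adjusted p 2.43e-05) and was the 1 call of 6 marrow stromal genes, while Lepr, used to select the cells, was at like levels in all libraries. Igfbp5 was the 1 call of 5 genes of the IGF axis (681 and 1282 CPM in control and 289 and 382 in injured libraries, -1.39), and Igfbp6 (-0.18) and Igfbp4 (-0.52) were not called. The log2 fold change of Igfbp5, -1.41, was 0.06 without members whose second score was above 0.5 and -0.86 without control round 2. The matricellular protein Ccn3 stood at 348 and 287 in control and 52.9 and 61.2 in injured (-2.29), gelatinase A (Mmp2) at 219 and 67 in control and 8.14 and 28.8 in injured (-2.25) and Ltbp4, which binds latent TGF-beta, at 343 and 607 in control and 159 and 173 in injured (-1.38). Groups did not overlap for these 3 genes. Mmp2, at -2.55 with all libraries, was at -1.46 without control round 1 and -3.99 without injured round 2, and Ltbp4, at -1.39, was at -0.90 without control round 2. With genes standardised within each library before members were chosen, Mmp2 was at -0.26, Cxcl12 at -0.86 (-2.77 otherwise) and Ccn3 at -1.46 (-2.32 otherwise).

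By the rule for naming genes by unadjusted p, Gm41724, Gm13889, Scrg1 and Cilp were also among the higher genes and Apod, Rbp4, Itih5 and Car3 among the lower. Gm41724 and Gm13889 are predicted genes and stood at 4.97 and 7.17 in control and 476 and 121 in injured and at 19.9 and 26.3 CPM in control and 163 and 93.6 in injured libraries. Scrg1 was at 29.8 and 43 in control and 142 and 203 in injured (2.39). The lipocalin Apod was at 363 and 124 in control and 8.14 and 43.2 in injured (-2.58), the retinol carrier Rbp4 at 189 and 143 in control and 52.9 and 30.6 in injured (-1.92) and the hyaluronan-associated protein Itih5 at 129 and 261 in control and 61.1 and 39.6 in injured (-1.91). The log2 fold change of Apod, -2.88, was -1.86 without control round 1, -4.79 without injured round 2, -6.79 without members whose second score was above 0.5 and -1.82 with genes standardised within each library. That of Rbp4, -1.92, was -0.32 with genes standardised within each library. Car3, on the nucleus pulposus list above, had 177 and 18 UMIs in control and 0 in injured members, at least 84.1-fold lower against the same floor. This bound rests on control round 1: with control round 2 alone it is at least 11.5-fold, and the log2 fold change went from -10.27 to -7.00 without control round 1. In other kept cells Car3 stood at 569 and 33.3 CPM in control and 0.799 and 2.88 in injured libraries, and in barcodes of at most 100 UMIs at 1454, 71.4 and 177 CPM in control round 2 and the injured libraries. The other 5 nucleus pulposus markers summed to 348, 311 and 83.3 CPM in such barcodes, and the part of free RNA in the difference of Car3 was not tested.

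**Figure D4:**
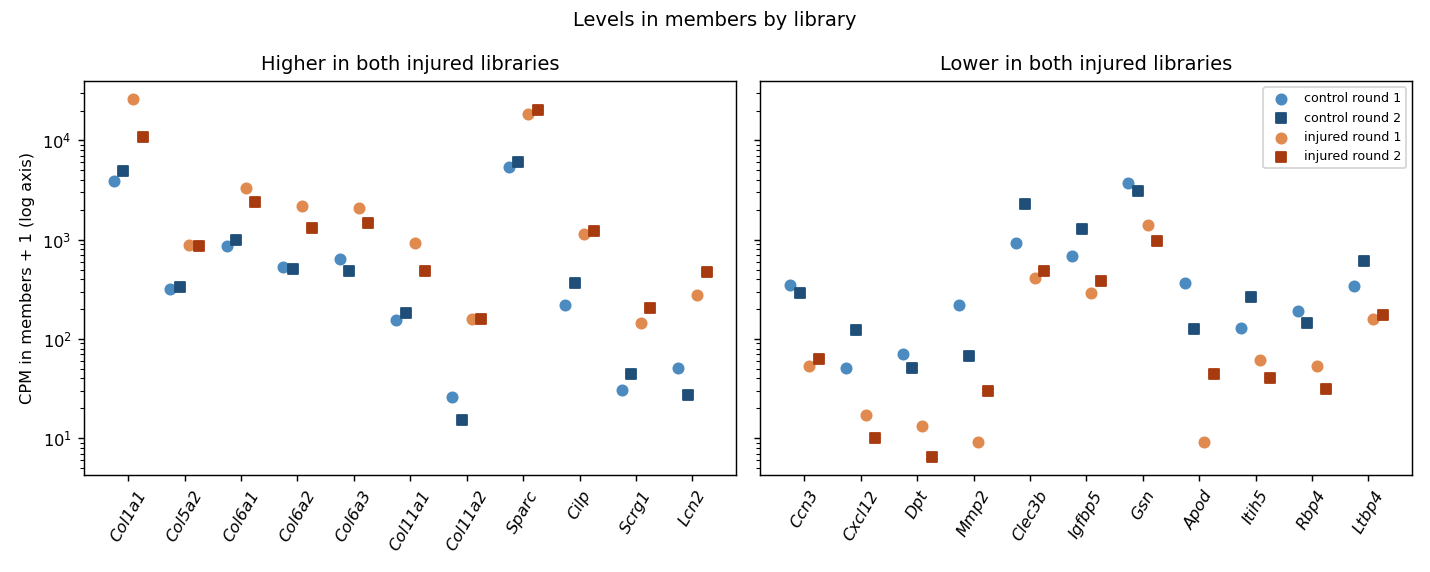
Level in members of each library (CPM + 1, log axis) for 22 of the genes described. On the left, circles and squares of the injured libraries (orange and red) lie above both control points (blue) for each gene, as for Sparc (18388 and 20124 against 5434 and 6096 CPM). On the right they lie below both control points for each gene.

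Several lists showed no call, including those tied to the names of the selecting genes. None of 5 leptin receptor signalling genes was called (median log2 fold change 0.00), with Stat3 at 119 and 146 CPM in control and 142 and 148 in injured libraries and the feedback inhibitor Socs3 at 164 and 297 in control and 89.5 and 199.8 in injured. Among 16 immediate early and dissociation genes there was also no call, and the median was -0.25 (-0.34 with the block). Medians were -0.12 (-0.06 with the block) over 11 hypoxia and glycolysis genes, -0.27 over 7 BMP and GDF genes and -0.08 over 6 reference genes, again without a call. In the fit without the block, these lists had no gene with an unadjusted p under 0.05. Of the angiopoietin-like relatives of Angptl7, only Angptl2 had enough counts (49.7 and 59.8 CPM in control and 93.6 and 99 in injured libraries), and it was not called. Of 6 tendon genes measured 1 was called (Col1a1), and of 7 elastic fibre genes 1 (Ltbp4). Only 2 genes each were measured of the cell division, posterior Hox, interferon and WNT lists, with no call.

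Whether injury differed in members from the other kept cells was tested as an interaction, with library as a term. edgeR called 21 of 7635 genes (0.275%), with 8 (0.105%) higher in members than the other cells' difference and 13 (0.17%) lower. With a block of round by class it called 19 (0.249%), 6 (0.0786%) higher and 13 (0.17%) lower. The count depended on single libraries: it was 1 without control round 1, 3 without control round 2, 93 without injured round 1 and 38 without injured round 2. The makeup of the other cells also differed between groups, as the numbers of Aspn panel cells above show, and the part of this in the calls was not tested.

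Cilp had the largest positive interaction of the called genes. It encodes cartilage intermediate layer protein, a matrix protein that binds TGF-beta, and lies at chr9:65265180-65280605. In members it stood at 219 and 368 CPM in control and 1144 and 1224 in injured libraries, and in other kept cells at 1407 and 1291 in control and 139 and 241 in injured. Injured members were thus above control members in both rounds, while injured other cells were below control other cells in both rounds. The difference of differences was 4.91 ± 0.349 (SE), edgeR adjusted p 2.58e-06, and it was called in each of 17 alternatives (3.60 to 5.37). The same was seen in detection at 1000 UMIs per cell: Cilp was found in 8.57% and 10.9% of control and 19.4% and 36.7% of injured members, against 30.0% and 37.7% of control and 8.53% and 10.3% of injured other cells.

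Mmp2 had the strongest negative interaction by p-value (-6.11 ± 0.596 (SE), edgeR adjusted p 0.000107). In other kept cells it stood at 9.62 and 6.85 CPM in control and 10.2 and 154 in injured libraries, so the 3 libraries other than injured round 2 were at 10.2 or below, and the increase lay in the library with 263 Aspn panel cells. The edgeR adjusted p of Mmp2 was 0.414 at a minimum of 250 genes, 0.255 with genes standardised within each library and 0.0605 without control round 1, and the call held in the other 14 alternatives. Fstl1 was nearly level in members (204 and 294 CPM in control and 179 and 250.2 in injured libraries) and higher in injured other cells (16.5 and 56.7 in control and 132 and 1043 in injured). Members and other cells also parted for 3 genes with few UMIs in members. Mfap5 stood at 44.7 and 28.7 CPM in control and 0 and 23.4 in injured libraries among members and at 19.2 and 9.78 in control and 16.6 and 164 in injured among other cells. The surface protein Cd248 was at 19.9 and 14.3 in control and 0 and 3.6 in injured members, against 4.12 and 9.78 in control and 4.47 and 70.6 in injured other cells. The aminopeptidase Anpep was at 9.94 and 28.7 in control and 0 and 19.8 in injured members, where groups overlapped, against 0 and 1.96 in control and 2.56 and 44.3 in injured other cells. In other cells all 3 were highest in injured round 2. The call held in 9 of 17 alternatives for Fstl1, 10 of 16 for Mfap5, 2 of 16 for Cd248 and 3 of 15 for Anpep. Single libraries moved these interactions: without injured round 2 that of Mfap5 went from -4.23 to -9.17, of Fstl1 from -3.76 to -2.34 and of Anpep from -5.28 to -9.25, and without control round 2 that of Anpep was -8.88.

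The other positive interactions were smaller than that of Cilp, and their calls held in fewer alternatives: in 11 of 17 for Ucma, 8 of 17 for Ccl2, 3 of 17 for Nrtn, 2 of 17 for Chodl and 4 of 16 for Gm48357. The interaction of Nrtn went from 2.69 to 1.45 without injured round 2 and that of Gm48357 from 3.25 to 10.05 without control round 2, and without members whose second score was above 0.5 that of Ucma went from 3.44 to 1.93. Without the shared barcodes of round 1 that of Chodl went from 2.34 to 1.54. Ccl2 stood at 1081 and 143 CPM in control and 963 and 419 in injured libraries in other cells, where the groups overlapped, and was higher in both injured libraries among members. Its interaction, 2.47, was 1.39 without the shared barcodes of round 1 (edgeR adjusted p 0.798), 1.66 without control round 1 (0.611) and -0.08 with cells thinned to 1000 UMIs. Ucma, a cartilage matrix protein, was at 69.6 and 19.1 in control and 24.4 and 73.8 in injured members, where groups overlapped, and at 256 and 208 in control and 27.2 and 32.8 in injured other cells, where they did not. The neurotrophic factor Nrtn was at 84.5 and 124 in control and 40.7 and 248 in injured members. In other cells Nrtn stood at 67.3 and 231 in control and 20.8 and 38.9 in injured libraries, lower in both injured libraries. The lectin Chodl was at 94.5 and 163 in control and 52.9 and 21.6 in injured members and at 128 and 193 in control and 11.8 and 5.98 in injured other cells, so it was lower after injury in both classes and less so in members. The predicted gene Gm48357 had few UMIs, at 0 and 31.1 in control and 36.6 and 81 in injured members and at 6.87 and 40.1 in control and 7.67 and 11 in injured other cells.

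**Figure D5:**
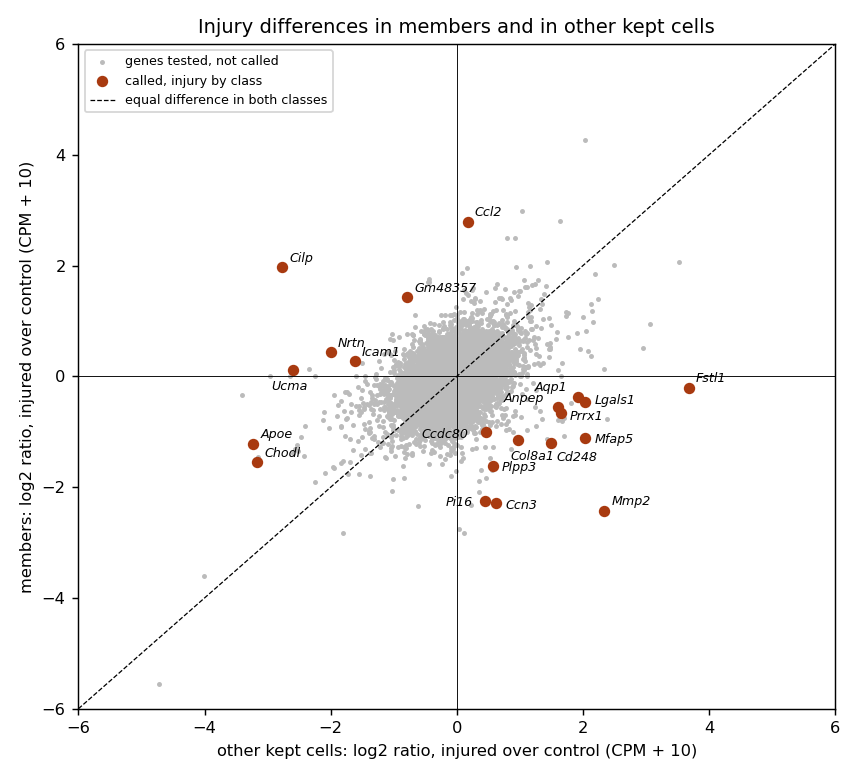
Log2 ratio of injured over control mean CPM + 10 in other kept cells (x axis) and in members (y axis) for each gene tested, with the 21 called interaction genes labelled. The dashed line marks equal differences. Cilp lies at the upper left (higher in injured members, lower in injured other cells), and Mmp2, Fstl1 and Mfap5 lie at the lower right.

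Members of a library varied widely in the genes that differed with injury. Col1a1 per 10000 UMIs had a median of 13.3 and 15.9 in control and 74.3 and 55.0 in injured members, with cells at 0 in each library and highest values of 397 and 286 in control and 748 and 414 in injured cells. Sparc had medians of 31.9 and 33.9 in control and 116 and 177 in injured members, and its quartiles were 11.3 to 53.2 and 14.2 to 62.4 in control and 17.0 to 259 and 87.1 to 262 in injured members. The quartile range thus overlapped that of the control libraries in injured round 1 and lay above it in injured round 2. Clec3b had medians of 6.05 and 13.8 in control and 0 in both injured libraries. After thinning, Clec3b was detected in 51.4% and 63.6% of control and 22.6% and 27.8% of injured members. Cells with more Col1a1 also had more Clec3b within a library (rho 0.59 and 0.62 in control, 0.24 and 0.32 in injured members), although Col1a1 was higher and Clec3b lower in injured members.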

How the data were processed

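Droplet single cell libraries of 2 control and 2 injured pools were used. Per the labels, the authors aligned reads to mm10 and counted them with Cell Ranger; per the file headers, this was version 6.0.0 for the control library of round 1 and version 4 for the others. The deposited values are raw UMI counts per gene and barcode over 32285 genes. The authors' stated minimum of 250 genes was tried as an alternative to 500. No doublet caller was run; members whose second panel was above 0.5 were left out in an alternative. The control matrix of round 1 had been filtered before deposit, unlike the others.

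Members were found as described above, and their counts were summed per library. Sums were tested with edgeR 4.0.16 in R 4.3.3 (quasi-likelihood test, default filter on low counts, TMM, Benjamini-Hochberg adjustment over all genes tested, called under 0.05). Standard errors were taken as log2 fold change over root F. DESeq2 1.42.0 was an alternative. Rounds pair the libraries, since their discs came from the same animals per the labels, and deviations from the group means correlated at 0.43 within rounds over 4259 genes. Shares have exact (Clopper-Pearson) 95% intervals; UMIs are counted molecules, and intervals and floors cover counting error only. Gene coordinates are those of GENCODE on mm10. Scripts were tested on simulated data with known changes.

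Members, panels and the 26 gene lists were chosen with earlier results of these data known. Named genes were the panel, the 25 with the largest excess in members, the 10 most different each way from the Aspn panel cells, up to 8 each way with the smallest p for injury and up to 6 each way for the interaction, plus examples from the lists; 1 of the 25 is not reported here.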

Additional observations from a re-analysis of the deposited data

Results flagged for a closer look

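Of the 21 genes whose injury difference was called as differing between members and the other kept cells, by an interaction term in edgeR with library as a term, the 12 with the largest values are given. Each value is the log2 injury difference in members minus that in other cells, with 2 libraries per group. It was 4.91 ± 0.349 (SE), edgeR adjusted p 2.58e-06, for Cilp. The others with a positive value were Ucma (3.44 ± 0.549 (SE), edgeR adjusted p 0.0209), Gm48357 (3.25 ± 0.645 (SE), edgeR adjusted p 0.049), Nrtn (2.69 ± 0.511 (SE), edgeR adjusted p 0.0423), Ccl2 (2.47 ± 0.426 (SE), edgeR adjusted p 0.0238) and Chodl (2.34 ± 0.434 (SE), edgeR adjusted p 0.0375). Among the negative values, that of Mmp2 was -6.11 ± 0.596 (SE), edgeR adjusted p 0.000107, of Mfap5 -4.23 ± 0.633 (SE), edgeR adjusted p 0.0123, of Fstl1 -3.76 ± 0.636 (SE), edgeR adjusted p 0.022, of Cd248 -5.36 ± 1.04 (SE), edgeR adjusted p 0.0467 and of Anpep -5.28 ± 1.04 (SE), edgeR adjusted p 0.049. Pi16 had -11.07 ± 2.07 (SE), edgeR adjusted p 0.0423, a fitted value that depends on the prior count because injured members held 0 UMIs. The call of Pi16 held in 5 of 16 alternatives. With round by class as a block, Nrtn (edgeR adjusted p 0.0582), Chodl (0.0522), Cd248 (0.0759) and Anpep (0.0626) were no longer called, and the other 8 were.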

How the results depend on the processing

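The lower share of members in injured libraries kept its direction in all 15 alternatives, from -4.20 to -18.3 percentage points. The count of genes called for injury within members, 0, was 88 with the replicate block that pairs the libraries of a round, 13 with DESeq2, 28 without a filter on low counts, 3 with genes standardised within each library, and 1 each without members whose second panel was above 0.5 and without shared barcodes. It ran from 12 to 30 without single libraries, where the lone library is assumed to vary like the others. The interaction count, 21, was 11 and 4 at score thresholds of 0.25 and 0.75, 6 and 5 at minimums of 250 and 1000 genes, 8 at 20% mitochondrial UMIs, 10 without shared barcodes in control round 1, 6 after thinning, 12 with DESeq2 and 88 without a filter; without single libraries it ran from 1 to 93. It was 19 with the replicate block. Signs turned for Igfbp5 within members (0.0627) and the Gm48357 interaction (-0.0496) without second-panel members, for the Ccl2 interaction after thinning (-0.0830), and for Pi16 (8.99) and Cd248 (5.57) with genes standardised within each library. Fewer members or genes enter several of these fits; the cause of each change was otherwise not tested. With 31 to 90 members per library, 4242 of 32285 genes had enough counts, so absent calls mean no more than not detectable at this depth. The 16 genes of the 25 at least 2-fold higher in each library were 19 by means over cells.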
